A study of Oryctolagus cuniculus with 15 samples.

Results

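EGR1, NR4A1, NR4A2, NR4A3, KLF4, KLF6, KLF10, HES1 and MYC were followed in bulk RNA-seq of rabbit corneal keratocytes, the cells of the corneal stroma. These 9 genes were chosen by name as early response transcription factors, with earlier results of these data known. All 9 were found among the 23428 genes of the count table. Their levels were compared over 5 culture conditions. The reference was directly lysed cells, which were not incubated in digestion medium before lysis.

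Early response genes are transcribed within minutes of a stimulus, from factors already present in the cell, and their transcripts are short-lived. EGR1 is a zinc finger factor induced by serum, growth factors and mechanical stress. The NR4A genes encode orphan nuclear receptors, the KLF genes encode zinc finger factors that bind GC-rich promoters, HES1 encodes a repressor best known as a Notch target, and MYC encodes a factor that drives growth and cell division. In the corneal stroma such genes are known to respond when keratocytes leave the resting state after injury.

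All 15 libraries came from first-passage normal rabbit keratocytes of New Zealand white rabbits, kept for 6 days in medium without serum, and there was no genetic or drug treatment. In 2DC the cells grew on a dish coated with collagen, and in 2DC_L the same culture was lysed directly in the dish. In 2DF they grew on top of a fibrillar collagen matrix, in 3DF they were embedded within one at 100000 cells per matrix, and in 3DF_50 at 50000. Each condition had 3 libraries from separate experiments, each pooled from several dishes or matrices. The cells of 2DC, 2DF, 3DF and 3DF_50 were incubated briefly in digestion medium before lysis. The matrices were also lifted off, digested in tubes and pelleted by centrifugation, and there was no matrix library without digestion. Growth on or in a matrix and this handling therefore cannot be told apart when a matrix condition is set against a dish.

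Between 14626982 and 31804255 reads were counted per library. All 6 keratocyte markers were detected in every condition, with a summed level of 20000 to 43000 FPKM per library (FPKM are the authors' counts scaled by gene length and library size). The 8 markers of the corneal epithelium summed to 0.162 to 1.21 FPKM in 2DC, with KRT12 at 0, and to 7.82 to 12.8 FPKM in 3DF, with none at 0. They summed to 0.226 to 1.11 FPKM in 2DC_L (KRT12 and EPCAM at 0), to 0.767 to 6.29 FPKM in 2DF (KRT15 and EPCAM at 0) and to 0.0786 to 5.97 FPKM in 3DF_50 (KRT15 at 0). The 4 markers of the corneal endothelium summed to 291 to 467 FPKM in the dish libraries, 357 to 453 FPKM in 2DF, 126 to 184 FPKM in 3DF and 78.2 to 96.6 FPKM in 3DF_50. COL8A2 made up most of these sums. Its mean was 340.7 FPKM in 2DC_L, 303.5 in 2DC, 371.8 in 2DF, 122.8 in 3DF and 74.7 in 3DF_50. SLC4A11 and CA3 had condition means of at most 0.838 and 0.137 FPKM. The 4 vascular and 5 leukocyte markers summed to 1.83 to 7.86 FPKM in any library. In bulk RNA, more cells that express a gene and more RNA per cell cannot be told apart.

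The 9 genes took up 0.00964% to 0.0128% of all counts in the 2DC_L libraries. Their share was 0.203% to 0.214% in 2DC, 0.3325% to 0.369% in 2DF, 0.244% to 0.412% in 3DF and 0.277% to 0.319% in 3DF_50. All of them differed among the 5 conditions in edgeR's quasi-likelihood F test at an adjusted p of at most 0.05, where 41.8% of the 14036 genes tested did so. Among the 4 digested conditions alone 8 of 9 differed, against 32.5% of the 13779 genes tested. The exception was EGR1, with an edgeR adjusted p of 0.101.

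**Figure D1:**
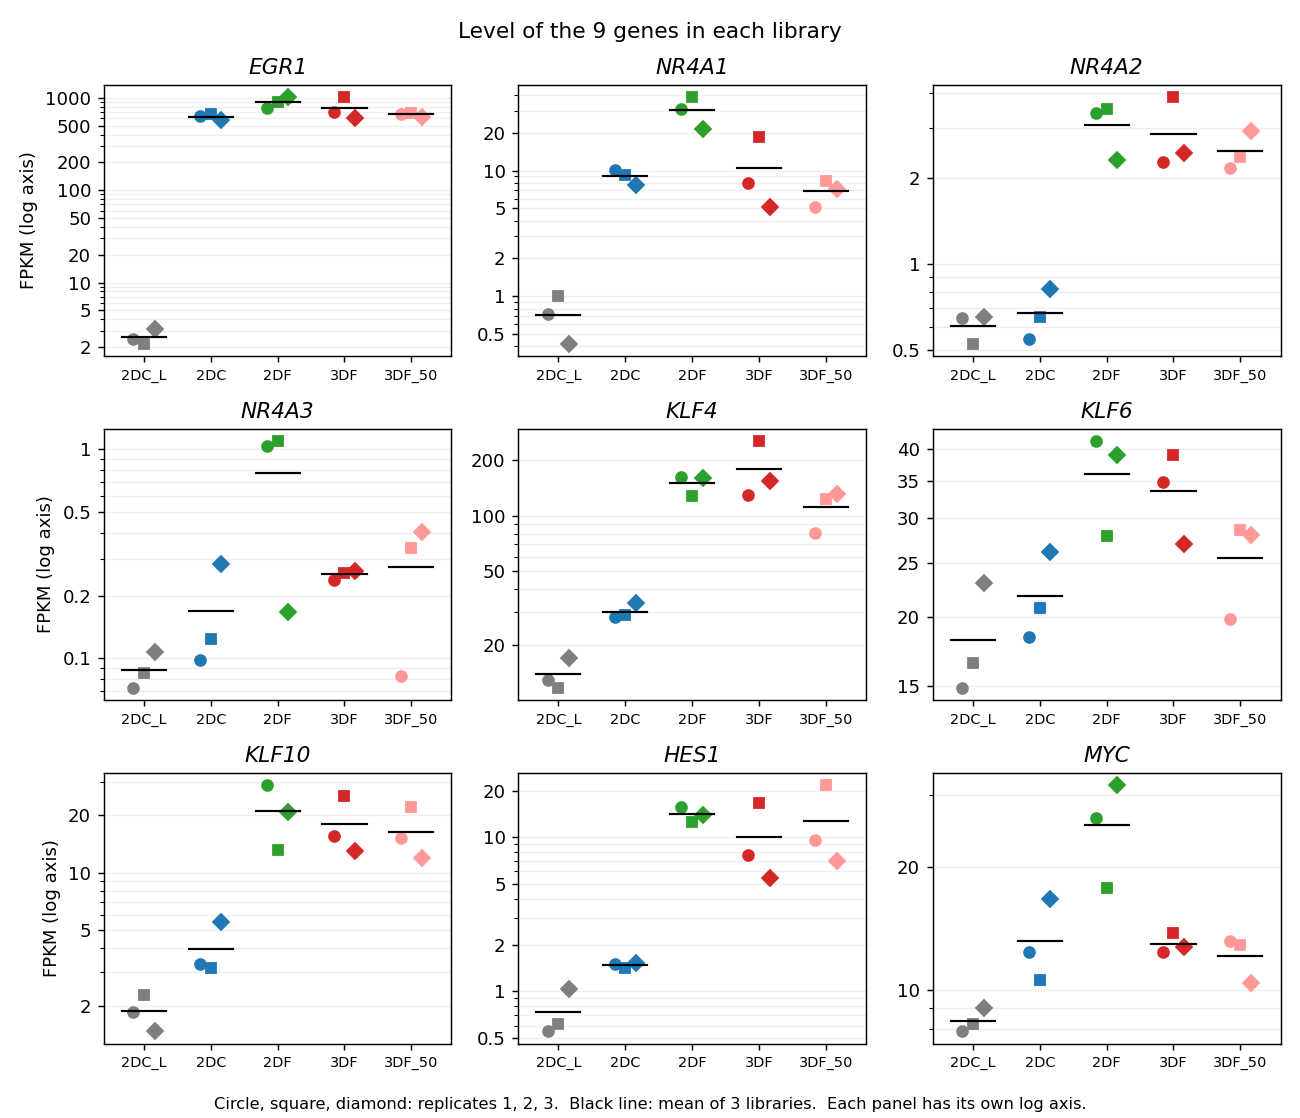
FPKM of each gene (log axis, a separate one in each panel) in the 15 libraries, by condition, with replicates 1, 2 and 3 as circle, square and diamond and the mean of 3 libraries as a black line. EGR1 stood at 2.175 to 3.17 FPKM in 2DC_L and at 573 FPKM or more elsewhere, whereas NR4A2 was level in both dish conditions and higher in every matrix library.

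A gene was called in a pair of conditions (n = 3 libraries each) if its absolute log2 fold change reached 1 and its adjusted p in edgeR was no larger than 0.05. In 2DC vs. 2DC_L, which differ by their labels in the digestion step, 3 of the 9 genes rose (EGR1, NR4A1 and KLF4), beside 0.257% of all genes tested. Against 2DC, 5 of 9 rose in 2DF, where 2.04% of all genes did. Against 2DC, 4 of 9 rose in 3DF and 4 of 9 in 3DF_50, with 3.24% and 4.28% of all genes called higher. The genes called in all 3 matrix conditions were NR4A2, KLF4, KLF10 and HES1, and these comparisons share the 2DC libraries.

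Against the undigested dish, all 9 genes were higher in 2DF, beside 2.93% of all genes. In 3DF and in 3DF_50, 7 of 9 were higher, beside 4.24% and 5.05% of all genes, and KLF6 and MYC were not called in either. These 3 comparisons share the 2DC_L libraries and differ in both culture and digestion. Between matrices, 0 of 9 genes were called in 3DF vs. 2DF, where 3.78% of all genes were called in either direction. In 3DF_50 vs. 2DF, NR4A1 and MYC were lower, beside 3.01% of all genes. In 3DF vs. 3DF_50, 0 of 9 were called by edgeR or DESeq2, beside 0.452% of all genes in either direction.

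**Figure D2:**
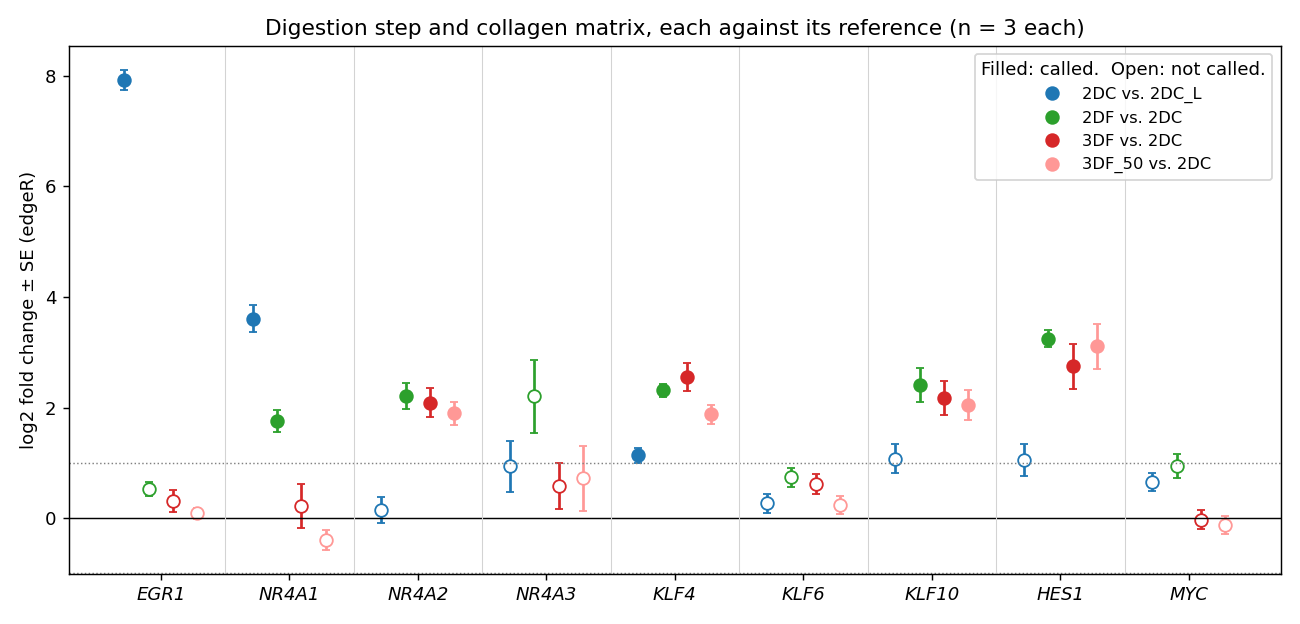
Log2 fold change with its SE (vertical axis, edgeR, n = 3 libraries each) of each gene for the digestion step (2DC vs. 2DC_L) and for each matrix condition against the digested dish, with called values filled, others open and dotted lines at the fold limit. EGR1 reached 7.93 at the digestion step and at most 0.53 after it, while HES1 reached 1.05 at the digestion step and 3.25 in 2DF vs. 2DC.

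EGR1 had the largest change of the 9 genes at the digestion step. It lies at chr3:20738615-20742487 of oryCun2. Its level was 2.42, 2.175 and 3.17 FPKM in the 2DC_L libraries and 633, 664 and 573 FPKM in the 2DC libraries. Every digested dish stood far above every undigested one, and among all genes ranked by FPKM EGR1 moved from places 9135 to 9841 in 2DC_L to places 62 to 74 in 2DC. The difference was 244-fold, a log2 fold change of 7.93 ± 0.18 (SE), with an edgeR adjusted p of 2.76e-07. Within the library-name prefixes E2 and E3, which both conditions share, the log2 CPM differed by 8.03 and 8.25.

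In the matrices EGR1 was at 785, 895 and 1013 FPKM in 2DF, at 699, 1015 and 607 FPKM in 3DF and at 670.2, 689.8 and 626 FPKM in 3DF_50. The 2DF libraries lay above all 2DC libraries, and the 3DF and 3DF_50 libraries overlapped with 2DC. The log2 fold change against 2DC was 0.53 ± 0.13 in 2DF (edgeR adjusted p 0.0278, below the fold limit), 0.30 ± 0.20 in 3DF (adjusted p 0.355) and 0.09 ± 0.10 in 3DF_50 (adjusted p 0.531). Against 2DC_L it was 8.46 in 2DF, 8.24 in 3DF and 8.02 in 3DF_50, beside 7.93 in 2DC.

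Of the nuclear receptors, NR4A1 responded at the digestion step, NR4A2 passed the test in matrices but not at that step, and NR4A3 stayed near the lower end of detection. NR4A1 (chr4:36193799-36207535) was at 0.722, 0.998 and 0.42 FPKM in 2DC_L and at 10.1, 9.3 and 7.72 FPKM in 2DC. These libraries did not overlap, and the log2 fold change was 3.61 ± 0.25 (12.2-fold, edgeR adjusted p 0.00038). Within prefixes E2 and E3 the log2 CPM differed by 3.79 and 3.2.

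NR4A1 was at 31.1, 38.4 and 21.5 FPKM in 2DF, at 7.98, 18.6 and 5.11 FPKM in 3DF and at 5.12, 8.25 and 7.21 FPKM in 3DF_50. It was highest in 2DF, whose libraries overlapped with no other condition, while the 3DF libraries lay on both sides of the digested dish and 2 of the 3 3DF_50 libraries lay below all of its libraries. It rose in 2DF vs. 2DC by a log2 fold change of 1.75 ± 0.20 (3.36-fold, edgeR adjusted p 0.000996). The difference was 0.22 ± 0.41 in 3DF vs. 2DC (edgeR adjusted p 0.756) and -0.40 ± 0.17 in 3DF_50 vs. 2DC (edgeR adjusted p 0.104).

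Against 2DF, NR4A1 was 4.36-fold lower in 3DF_50, with a log2 fold change of -2.13 ± 0.22 (edgeR adjusted p 0.000118), and within prefix E5 the log2 CPM differed by -1.93. With the library prefix as a block that edgeR adjusted p was 0.0563. In 3DF vs. 2DF the value was -1.52 ± 0.40 (edgeR adjusted p 0.0573). Without 3DF replicate 2, at 18.6 FPKM, it was -2.22 (edgeR adjusted p 0.00128). With all libraries it also passed in edgeR with library size only, no filter, all 5 conditions in the fit or the replicate block, at values of -1.46 to -1.68 and adjusted p-values of 0.00519 to 0.0457.

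NR4A2 (chr7:95178315-95196096) was at 0.644, 0.525 and 0.653 FPKM in 2DC_L and at 0.547, 0.651 and 0.818 FPKM in 2DC. The dish libraries overlapped, and the log2 fold change of 0.15 ± 0.23 did not pass (edgeR adjusted p 0.963). In matrices it was at 3.4, 3.51 and 2.31 FPKM in 2DF, 2.285, 3.85 and 2.46 FPKM in 3DF and 2.18, 2.37 and 2.94 FPKM in 3DF_50. Every matrix library lay above every dish library, and the matrix conditions overlapped among themselves.

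Against 2DC, NR4A2 rose by a log2 fold change of 2.21 ± 0.23 in 2DF (4.61-fold, edgeR adjusted p 0.000719), 2.09 ± 0.27 in 3DF (edgeR adjusted p 0.00152) and 1.90 ± 0.21 in 3DF_50 (edgeR adjusted p 0.000185). Within shared prefixes the log2 CPM differed by 1.48 in 3DF vs. 2DC (E6) and by 1.75 in 3DF_50 vs. 2DC (E3). Between matrix conditions the differences were at most 0.28 in size, with edgeR adjusted p-values of 0.406 to 0.853.

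NR4A3 (chr1:13351901-13392787) had the lowest counts of the 9 genes, 11 to 15 per library in 2DC_L and 17 to 39 in 2DC. Its level was 0.0726, 0.0857 and 0.107 FPKM in 2DC_L and 0.0988, 0.125 and 0.284 FPKM in 2DC, and the difference of 0.94 ± 0.46 did not pass (edgeR adjusted p 0.901). In 2DF it was at 1.04, 1.096 and 0.167 FPKM, from 113, 120 and 18 counts. Replicate 3 of 2DF thus stood apart from the other 2DF libraries and lay within the range of 2DC. The 5 leukocyte markers summed to 6.91, 7.86 and 3.66 FPKM in these libraries and to 2.51 to 5.3 FPKM in 2DC. CD68 made up most of the sum in 2DF, at 6.24, 7.3 and 2.81 FPKM, and PTPRC was at 0 in all 2DF libraries. Their part in the level of NR4A3 was not tested.

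NR4A3 was at 0.238, 0.257 and 0.264 FPKM in 3DF and at 0.0823, 0.339 and 0.402 FPKM in 3DF_50, where replicate 1 was at the level of the undigested dish. Against 2DC_L its log2 fold change was 3.14 ± 0.62 in 2DF (edgeR adjusted p 0.00607), 1.53 ± 0.31 in 3DF (edgeR adjusted p 0.00668) and 1.66 ± 0.53 in 3DF_50 (edgeR adjusted p 0.0291). The 3DF_50 call was lost without any one of 2DC_L replicate 1, 2DC_L replicate 2, 3DF_50 replicate 2 or 3DF_50 replicate 3, at edgeR adjusted p-values of 0.0921, 0.078, 0.0952 and 0.115. With the library prefix as a block none of the 3 was called, at 2.62 in 2DF, 0.60 in 3DF and 0.99 in 3DF_50 (edgeR adjusted p 0.145, 0.43 and 0.154). With all 5 conditions in the fit the 3DF and 3DF_50 values had edgeR adjusted p-values of 0.0849 and 0.0585.

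Against 2DC, NR4A3 had a log2 fold change of 2.20 ± 0.66 in 2DF (edgeR adjusted p 0.0577), 0.58 ± 0.41 in 3DF (edgeR adjusted p 0.391) and 0.72 ± 0.59 in 3DF_50 (edgeR adjusted p 0.367). None of these passed, but the 2DF value did so with DESeq2 (adjusted p 0.00302) and in edgeR with library size only, no filter or all 5 conditions in the fit (adjusted p 0.0208 to 0.0476). Without 2DF replicate 3 the 2DF value was 2.68 (edgeR adjusted p 0.00994), and without 2DC replicate 3 it was 2.79 (edgeR adjusted p 0.0434). Without 2DF replicate 3 NR4A3 was also lower in 3DF and in 3DF_50 than in 2DF, by log2 fold changes of -2.07 and -1.94 (edgeR adjusted p 0.00667 and 0.0217). With all libraries the values were -1.60 ± 0.55 and -1.45 ± 0.64 (edgeR adjusted p 0.13 and 0.181). Of 8 alternatives that kept all libraries, 2 called NR4A3 in 3DF vs. 2DF and 0 in 3DF_50 vs. 2DF.

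Among the KLF genes KLF4 and KLF10 were higher in the matrices, and KLF6 changed least. KLF4, a factor known to hold back proliferation and to support epithelial differentiation, lies at chr1:5665756-5668152. It was at 13.0, 11.8 and 17.0 FPKM in 2DC_L and at 28.3, 28.9 and 33.8 FPKM in 2DC. The libraries did not overlap, and KLF4 was called with a log2 fold change of 1.13 ± 0.14 (2.19-fold, edgeR adjusted p 0.0163). The call was lost without any one of 2DC replicate 2, 2DC replicate 3, 2DC_L replicate 1 or 2DC_L replicate 2, at edgeR adjusted p-values of 0.0919, 0.0521, 0.138 and 0.0811, while the log2 fold change stayed between 1.03 and 1.28. It was also lost with all 5 conditions in the fit (1.14, edgeR adjusted p 0.0592).

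In the matrices KLF4 was at 161, 127.5 and 159.7 FPKM in 2DF, at 129.8, 253 and 154 FPKM in 3DF and at 80.9, 123 and 131 FPKM in 3DF_50. Every matrix library lay well above every dish library. KLF4 rose against 2DC by log2 fold changes of 2.31 ± 0.12 in 2DF (4.95-fold, edgeR adjusted p 3.37e-05), 2.55 ± 0.25 in 3DF (5.87-fold, edgeR adjusted p 0.000475) and 1.88 ± 0.17 in 3DF_50 (3.69-fold, edgeR adjusted p 7.31e-05). Within shared prefixes the log2 CPM differed by 1.95 in 3DF vs. 2DC (E6) and by 1.49 in 3DF_50 vs. 2DC (E3).

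KLF4 is also expressed by corneal epithelium, whose markers were higher in 3DF than in 2DC in 4 of the 5 tested. Replicates 1 and 2 of 3DF_50 had summed epithelial levels of 0.0786 and 0.145 FPKM, below every 2DC library, and KLF4 at 80.9 and 123 FPKM. NR4A2, KLF10 and HES1 were also above every dish library in these replicates. The part of epithelial RNA in the 3DF level was not tested.

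KLF6 (scaffold Un0009, 3650505 to 3658905), expressed widely and known as an early gene of injured tissue, was at 14.9, 16.5 and 22.9 FPKM in 2DC_L and at 18.4, 20.7 and 26.1 FPKM in 2DC. It was at 41.3, 27.9 and 39.0 FPKM in 2DF, 34.8, 39.0 and 27.0 FPKM in 3DF and 19.8, 28.6 and 28.0 FPKM in 3DF_50. The digested dish and 3DF_50 overlapped with the undigested dish, and 2DF and 3DF lay above it. Against 2DC_L the log2 fold change was 0.27 ± 0.18 in 2DC (edgeR adjusted p 0.916) and 1.01 ± 0.18 in 2DF (edgeR adjusted p 0.00387).

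For KLF6 in 2DF vs. 2DC_L the fold limit decided the call, since the value fell to between 0.88 and 0.94 without any one of 2DC_L replicate 1, 2DC_L replicate 2, 2DF replicate 1 or 2DF replicate 3. Against 2DC_L, KLF6 differed by 0.90 ± 0.19 in 3DF and by 0.50 ± 0.18 in 3DF_50, with edgeR adjusted p-values of 0.0087 and 0.0422. The 3DF value passed the fold limit without 2DC_L replicate 3 (1.09) or 3DF replicate 3 (1.03). Against 2DC, KLF6 differed by 0.74 ± 0.17 in 2DF, 0.62 ± 0.18 in 3DF and 0.23 ± 0.16 in 3DF_50, all below the limit.

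KLF10 (chr3:118135946-118141992), known as an early target of TGF-beta, was at 1.85, 2.29 and 1.47 FPKM in 2DC_L and at 3.3, 3.14 and 5.53 FPKM in 2DC. The dish libraries did not overlap, but the log2 fold change of 1.08 ± 0.26 did not pass (edgeR adjusted p 0.386). DESeq2 called it, at an adjusted p of 0.0101, and the other alternatives did not. It was at 28.85, 13.2 and 20.9 FPKM in 2DF, 15.65, 25.35 and 12.95 FPKM in 3DF and 15.2, 22.0 and 11.98 FPKM in 3DF_50. All matrix libraries lay above all dish libraries and overlapped among themselves.

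KLF10 rose against 2DC by log2 fold changes of 2.41 ± 0.31 in 2DF (5.31-fold, edgeR adjusted p 0.00161), 2.17 ± 0.30 in 3DF (edgeR adjusted p 0.00257) and 2.05 ± 0.27 in 3DF_50 (edgeR adjusted p 0.000477). Within shared prefixes the log2 CPM differed by 1.51 in 3DF vs. 2DC (E6) and by 2.28 in 3DF_50 vs. 2DC (E3).

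HES1 (chr14:89962420-89964963) had the largest log2 fold change of the 9 genes in each of the 3 matrix comparisons with 2DC, with 2 exceptions among the alternatives. In 2DF with the library prefix as a block, NR4A2 (2.25), KLF10 (2.14), KLF4 (1.85) and NR4A3 were above HES1 (1.64). In 3DF without replicate 2 of 3DF, KLF4 was above HES1 (2.21 and 2.14). HES1 was lower in dishes. It was at 0.55, 0.611 and 1.04 FPKM in 2DC_L, from 23 to 25 counts, and at 1.5, 1.41 and 1.53 FPKM in 2DC. The digested libraries were the higher ones, and the log2 fold change of 1.05 ± 0.29 did not pass (edgeR adjusted p 0.587). In the matrices HES1 was at 15.7, 12.5 and 13.9 FPKM in 2DF, 7.71, 16.8 and 5.47 FPKM in 3DF and 9.55, 21.9 and 7.06 FPKM in 3DF_50. Every matrix library was above every dish library, with a wide spread in 3DF and 3DF_50, where replicate 2 was the highest.

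HES1 rose against 2DC by log2 fold changes of 3.25 ± 0.16 in 2DF (9.5-fold, edgeR adjusted p 2.63e-05), 2.75 ± 0.41 in 3DF (6.7-fold, edgeR adjusted p 0.00326) and 3.11 ± 0.41 in 3DF_50 (8.63-fold, edgeR adjusted p 0.000505). Within shared prefixes the log2 CPM differed by 2.33 in 3DF vs. 2DC (E6) and by 2.76 in 3DF_50 vs. 2DC (E3). Between the matrices HES1 differed by -0.49 ± 0.34 in 3DF vs. 2DF (edgeR adjusted p 0.439), and without 3DF replicate 2 by -1.10 (edgeR adjusted p 0.0168). In 3DF_50 vs. 2DF it differed by -0.12 ± 0.33 (edgeR adjusted p 0.867), a direction that turned to 0.12 with scaling by library size only.

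MYC (chr3:143523861-143528653) was highest in 2DF. It was at 7.9, 8.21 and 9.03 FPKM in 2DC_L and at 12.35, 10.6 and 16.6 FPKM in 2DC. It was at 26.3, 17.8 and 31.7 FPKM in 2DF, at 12.4, 13.8 and 12.7 FPKM in 3DF and at 13.1, 12.85 and 10.4 FPKM in 3DF_50. The 2DF libraries lay above all others, the undigested dish lay below all others, and 2DC, 3DF and 3DF_50 overlapped.

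Against 2DC_L the log2 fold change of MYC was 0.66 ± 0.16 in 2DC (edgeR adjusted p 0.391), 1.61 ± 0.19 in 2DF (edgeR adjusted p 0.000294), 0.63 ± 0.13 in 3DF (edgeR adjusted p 0.00623) and 0.54 ± 0.11 in 3DF_50 (edgeR adjusted p 0.00411), with only the 2DF value past the fold limit. Against 2DC it was 0.95 ± 0.22 in 2DF (edgeR adjusted p 0.0232), and it passed the limit without 2DC replicate 3 (1.14) or 2DF replicate 2 (1.15). In 3DF and 3DF_50 it differed from 2DC by -0.03 ± 0.17 and -0.12 ± 0.17 (edgeR adjusted p 0.914 and 0.599), values that turned to 0.13 and 0.23 with scaling by library size only.

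Against 2DF, MYC was 2.07-fold lower in 3DF_50, at a log2 fold change of -1.05 ± 0.19 (edgeR adjusted p 0.00363), and within prefix E5 the log2 CPM differed by -1.05. With the library prefix as a block the edgeR adjusted p was 0.122, and with library size only the value was -0.82. The call also fell below the fold limit without 2DF replicate 3 (-0.85) or 3DF_50 replicate 3 (-0.95). In 3DF vs. 2DF the value was -0.96 ± 0.20 (edgeR adjusted p 0.0179), just short of the fold limit, and it was past the limit without 2DF replicate 2 (-1.16) or 3DF replicate 2 (-1.02).

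The 2DF libraries share a library-name prefix with other conditions only in E5, which 3DF_50 also holds. There is thus no within-prefix value for 2DF vs. 2DC, 2DF vs. 2DC_L or 3DF vs. 2DF. Prefixes E9 and E10 hold only 2DF libraries. With the prefix as a block, every 2DF value therefore rests on replicate 1 of 2DF (E5) alone, linked to other conditions only through 3DF_50 replicate 2. Prefix E8 holds only replicate 3 of 3DF, so the 3DF values with that block rest on replicates 1 and 2 of 3DF. In a fit of all 5 conditions with the prefix as a block, 0 of 9 genes were called in 2DF vs. 2DC, where 16 of all genes were called in place of 658, and 5 of 9 in 2DF vs. 2DC_L, where 87 of all genes were called in place of 972. The log2 fold changes against 2DC in that fit were 1.04 for NR4A1, 2.25 for NR4A2, 1.85 for KLF4, 2.14 for KLF10 and 1.64 for HES1, with edgeR adjusted p-values of 0.552, 0.124, 0.0814, 0.239 and 0.315. In 3DF vs. 2DC and 3DF_50 vs. 2DC the same fit called 4 of 9 genes, NR4A2, KLF4, KLF10 and HES1, in each.

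Most of the 9 genes were highest in replicate 2 among the 3DF libraries, while NR4A3 and MYC differed little between them. In 3DF replicate 2, 9 of 9 genes were above the mean of the 3DF libraries on the log2(FPKM + 1) scale, with a median deviation of 0.43. Of the other named genes with a mean of at least 1 FPKM, 48.3% were above theirs. In 3DF replicates 1 and 3, 1 of 9 was above it, with median deviations of -0.14 and -0.29. Replicate 2 of 3DF_50 and replicate 1 of 2DF each had 8 of 9 genes above the mean of their condition, by medians of 0.17 and 0.13. In 3DF vs. 2DC the calls were 4 of 9 without any one library, 3DF replicate 2 included.

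**Figure D3:**
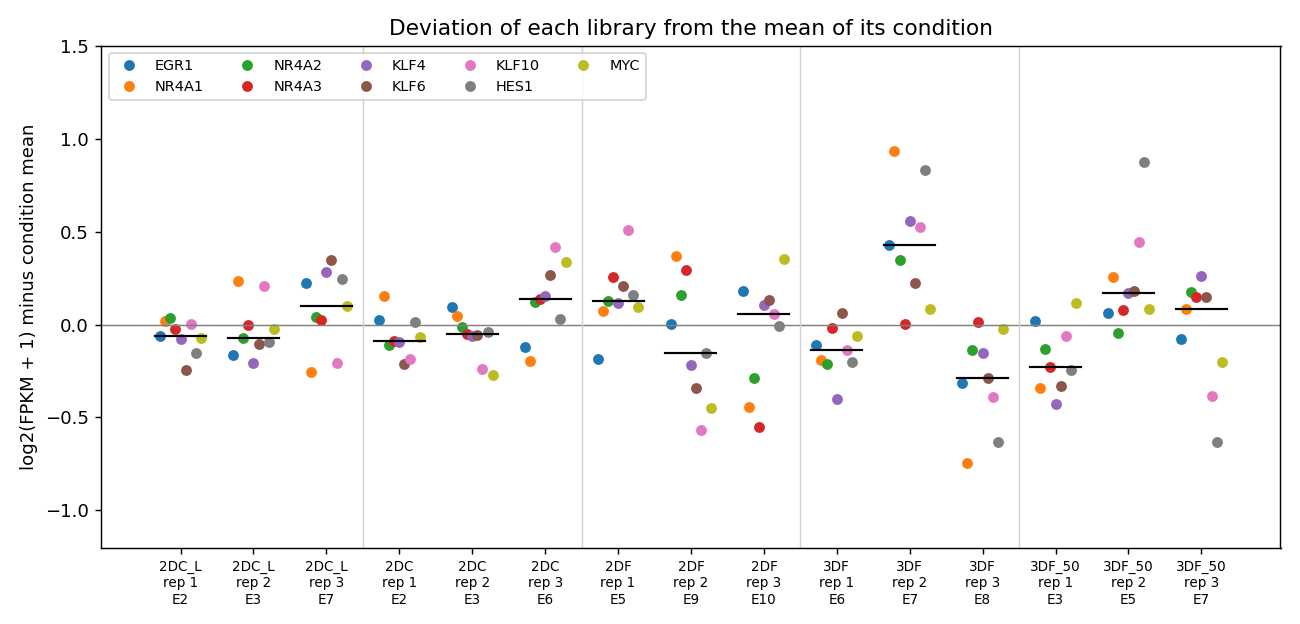
Deviation of each gene (coloured points) from the mean of its condition, as log2(FPKM + 1), in each of the 15 libraries, with the library-name prefix under each and the median of the 9 genes as a black line. In 3DF replicate 2 all 9 points lie above 0, with a median of 0.43, and NR4A1 and HES1 deviate most.

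Relatives and partners of the 9 genes were taken from lists of pathway genes. Of the EGR family and its NAB corepressors, 4 of 5 were tested in 2DC vs. 2DC_L and 2 rose, beside 0.257% of all genes. The median log2 fold change was 2.45 beside -0.0048 over all genes. EGR2 rose from 0.183, 0.441 and 0.489 FPKM to 19.1, 25.6 and 21.8 FPKM, a log2 fold change of 5.96 ± 0.26 (edgeR adjusted p 1.31e-05). EGR3 rose from 0.174, 0.28 and 0.127 FPKM to 3.68, 6.1 and 6.99 FPKM, a log2 fold change of 4.78 ± 0.33 (edgeR adjusted p 0.00038). The values of NAB1 and NAB2 were 0.12 and 0.08. In 2DF vs. 2DC and 3DF vs. 2DC 0 of the 4 tested were called, as for EGR1, beside 4.96% and 7.56% of all genes in either direction.

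Of 20 other early response genes, 18 were tested in 2DC vs. 2DC_L and 7 rose, beside 0.257% of all genes, with a median log2 fold change of 1.07. The largest changes were those of the antiproliferative gene BTG2 (4.19 ± 0.12), the RNA-binding gene ZFP36 (4.14 ± 0.09), IER2 (4.05 ± 0.12) and the matricellular gene CYR61 (3.26 ± 0.12), all with an edgeR adjusted p of at most 5.38e-06. SRF, which encodes a factor that binds the promoters of EGR1 and FOS, is on this list too and was among the 7. It was also the only one of 12 SRF, ternary complex and CREB factors to be called, at 1.99 ± 0.09 (edgeR adjusted p 1.31e-05). In 2DC vs. 2DC_L none of 11 other KLF and SP factors, 8 Notch pathway genes, 8 genes of the MYC/MAX/MXD network and 2 RXR receptors was called by edgeR. Of all 13608 genes tested there, 0.265% were called in either direction, and 780 had an unadjusted p under 0.05 in edgeR.

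Against 2DC, 2 of the 18 other early response genes rose in 2DF, beside 2.04% of all genes. They were PLK3 (2.88 ± 0.32, edgeR adjusted p 9e-04) and CSRNP1 (1.55 ± 0.18, edgeR adjusted p 0.000996). In 3DF, PLK3 (2.19 ± 0.34), TRIB1 (2.11 ± 0.43) and CSRNP1 (1.29 ± 0.18) rose, beside 3.24% of all genes. CTGF and CYR61, which encode matricellular proteins, fell in 3DF vs. 2DC, where 583 of all 13493 genes tested were called lower. The log2 fold changes of CTGF and CYR61 were -4.32 ± 0.40 and -2.33 ± 0.41. CYR61 was thus at 941, 1024 and 972 FPKM in 2DC, at 155, 336 and 94.5 FPKM in 3DF and at 89.6, 103 and 114 FPKM in 2DC_L. In 3DF vs. 2DF the only called genes of this list were CTGF (-3.82 ± 0.30) and CYR61 (-2.29 ± 0.39), beside 3.78% of all genes in either direction.

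Among the 11 other KLF and SP factors tested, KLF13 rose in 2DF vs. 2DC (1.73 ± 0.22, edgeR adjusted p 0.00167) and fell in 3DF vs. 2DF (-1.04 ± 0.21, edgeR adjusted p 0.0179), and KLF11 rose in 3DF vs. 2DC (1.07 ± 0.16, edgeR adjusted p 0.00341). The median of the list was 0.16 in 2DF vs. 2DC and 0.36 in 3DF vs. 2DC, beside 0.0045 and 0.012 over all genes. Of the Notch ligands, receptors and HES or HEY targets beside HES1, 14 of 18 were in the table. In 2DF vs. 2DC 7 were tested and 1 was called, beside 4.96% of all genes in either direction. It was the ligand JAG1, which fell by a log2 fold change of -1.09 ± 0.16 (edgeR adjusted p 0.00335). JAG1 was higher in 3DF than in 2DF (1.14 ± 0.16, edgeR adjusted p 0.00295). In 3DF vs. 2DC 0 of 9 tested Notch genes were called by edgeR, beside 7.56% of all genes in either direction.

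In the MYC/MAX/MXD network 8 of 10 genes were tested and 0 were called by edgeR in 2DF vs. 2DC and 3DF vs. 2DF. Of all genes, 4.96% and 3.78% were called in either direction in these comparisons. The repressor gene MXD3 fell in 3DF vs. 2DC (-2.74 ± 0.74, edgeR adjusted p 0.0397), and its 2DC libraries were spread from 0.758 to 6.78 FPKM. RXRB and RXRG, partners of the NR4A receptors, were the 2 RXR genes tested, and 0 were called in any of the 10 comparisons by edgeR. Between 0.265% and 13.5% of all genes were called in either direction in a comparison.

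**Figure D4:**
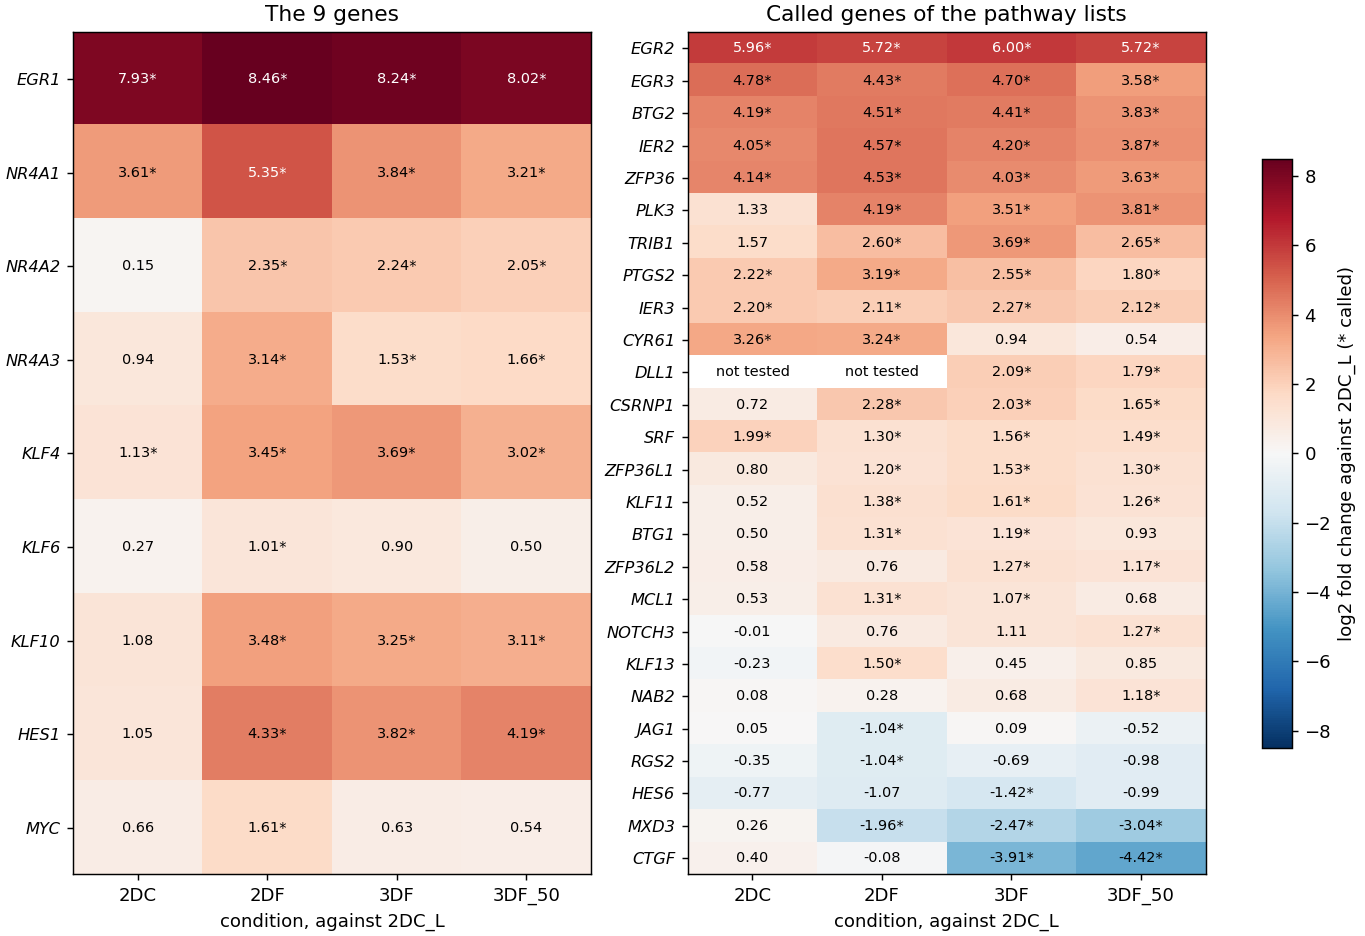
Log2 fold change against 2DC_L (colour and printed value, edgeR) of the 9 genes and of every gene of the pathway lists called in at least 1 of the 4 comparisons, with an asterisk on called values. EGR1 held 7.93 to 8.46 in all 4 digested conditions, NR4A2 was at 0.15 in 2DC and 2.05 to 2.35 in the matrices, and CTGF was at -3.91 and -4.42 in 3DF and 3DF_50.

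The pattern of each gene over the 15 libraries was compared with 9681 named genes of at least 1 FPKM on average, by Pearson's r of log2(FPKM + 1). These values are descriptions, since the libraries share their conditions and much of each r rests on 2DC_L against the rest or on matrix against dish. EGR1 was most like FOS (r = 0.988), IER2 (0.987) and ZFP36 (0.982), and NR4A1 most like JUN (0.937), SNAI1 (0.936) and PTGS2 (0.9355). NR4A2 was most like ARPC1B (0.9735), PNP (0.967) and RIN2 (0.962), and NR4A3 most like TCTEX1D4 (0.914), CD68 (0.887) and SOX15 (0.8805).

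KLF4 was most like FOSB (0.9775), BRAP (0.975) and SOCS3 (0.973), and KLF6 most like SH3D19 (0.922), MCL1 (0.92) and MAD2L1BP (0.912). KLF10 was most like ETS2 (0.98), DNAJB2 (0.976) and ARPC4 (0.973), and HES1 most like PLK3 (0.967), DNAJB2 (0.96) and ETS2 (0.957). MYC was most like ETV3 (0.911), CXCL8 (0.886) and SKIL (0.879). Within the set the highest r was that of KLF10 with HES1 (0.966), followed by KLF4 with KLF10 (0.959) and NR4A2 with KLF4 (0.951), and the lowest was that of EGR1 with NR4A3 (0.417).

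Some features of the gene models are given here, and their effect on these levels was not tested. The KLF4 model holds 744 bases of exon, the fewest of the 9, within a span of 2397 bases. KLF4 and NR4A3 also lie inside the model of GNG10, which spans 121930206 bases in the table and had 1863 to 4022 counts per library, and no other model of the table overlaps the remaining 7 genes. Overlap was judged by whole spans, introns included, and overlap of exons was not checked. Whether the counting used strand is not given in the sources used here.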

How the data were processed

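The authors sequenced 15 libraries made from total RNA, aligned the reads to oryCun2 with HISAT2 and counted them per gene with featureCounts. The deposited counts give raw reads per gene as integers, and the deposited FPKM values were made by the authors from the same counts and the gene length. Library sizes behind the FPKM were 0.921 to 1.24 times the summed counts. All columns matched a labelled library, and 0 were left unmatched. Conditions and replicate numbers came from the library titles. The table holds 23428 genes, of which 15408 have a symbol. The 9 genes and the lists were chosen with earlier results of these data known.

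Each of 10 pairs of conditions was tested on the counts in edgeR 4.0.16 (R 4.3.3) with a two-sided quasi-likelihood F test, TMM scaling, filterByExpr with a minimum count of 10, and only that pair in the fit. P-values were adjusted over all genes tested after Benjamini and Hochberg. The SE is the size of the log2 fold change divided by the square root of F. All 9 genes passed the filter in every comparison. CPM within a prefix are counts scaled to the TMM library size. The named genes are the 9 genes, the up to 4 most changed called members of each list at the digestion step, in each of 2DF and 3DF against 2DC, and between these matrices, and the 3 most like genes with a mean of at least 1 FPKM. Alternatives were DESeq2 1.42.0, its size factors, library size only, no filter, a mean of at least 1 CPM, all 5 conditions in the fit, replicate number or library prefix as a block, and leaving out each library. Tables and figures were made in Python 3.11.15 with pandas 2.3.3, numpy 2.4.6 and matplotlib 3.10.9. No sequences are shown. The meaning of the library-name prefixes is not given in the sources used here.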

Additional observations from a re-analysis of the deposited data

How the results depend on the processing

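Of 41 called values of single genes, 37 held when any 1 library was left out, and over 574 alternatives 543 kept the call, 31 lost it and 0 changed direction. Of 685 alternatives of the 49 values not called, 25 passed the test and 37 changed direction. With the library prefix as a block, 5 genes were called in 2DF vs. 2DC_L, 0 in 2DF vs. 2DC and 0 in 3DF_50 vs. 2DF. In 3DF vs. 2DF, where 0 were called, 1 was called with DESeq2, with library size only, with all 5 conditions in the fit and with the replicate block, 2 with no filter, and 0 to 3 without 1 library (3 without 3DF replicate 2). In 3DF_50 vs. 2DF, 1 was called with library size only and 1 to 2 without 1 library. The replicate block moved no other count of called genes by over 1.5 times. Replicate numbers were not used as pairs in the main fits. In no comparison were all 3 correlations between equally numbered libraries over 0.1 (0.322, 0.0644 and 0.105 in 2DC vs. 2DC_L). Such a limit cannot decide whether libraries are paired, and replicates 1 and 2 of 2DC and 2DC_L share the prefixes E2 and E3. Library size only moved the median of all genes by 0.18, 0.36, 0.19, 0.37, 0.25 and -0.15 in 3DF vs. 2DC_L, 3DF_50 vs. 2DC_L, 3DF vs. 2DC, 3DF_50 vs. 2DC, 3DF_50 vs. 2DF and 3DF vs. 3DF_50. Higher and lower genes then numbered 835 and 643, 1357 and 747, 649 and 475, 1206 and 633, 394 and 287, and 24 and 29, beside 575 and 811, 673 and 1128, 437 and 583, 574 and 983, 190 and 397, and 42 and 18 with TMM. With the prefix block 4 genes were called in 3DF vs. 2DF in place of 499, 236 in 3DF_50 vs. 2DF in place of 587, and 10 in 3DF vs. 3DF_50 in place of 60. In the latter, DESeq2 called 202, no filter 155 and all 5 conditions 196. Among the 4 digested conditions library size only called 6820 genes in place of 4477. With the prefix as a block, the 2DF comparisons rest on replicate 1 of 2DF (E5) alone, since E9 and E10 hold no other condition. The 3DF side of a comparison then rests on replicates 1 and 2 of 3DF, since E8 holds only replicate 3 of 3DF. The cause of the other changes was not tested.

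Directions that changed were all of values not called. With library size only they were MYC in 3DF vs. 2DC (0.13), 3DF_50 vs. 2DC (0.23) and 3DF vs. 3DF_50 (-0.091), HES1 in 3DF_50 vs. 2DF (0.12) and KLF10 in 3DF vs. 3DF_50 (-0.055). With the prefix block they were NR4A3 in 3DF vs. 2DC (-0.19), EGR1 and KLF6 in 3DF_50 vs. 2DC (-0.13, -0.041), EGR1, KLF10 and HES1 in 3DF vs. 2DF (0.30, 0.18, 1.199), and HES1 in 3DF_50 vs. 2DF (0.46) and 3DF vs. 3DF_50 (0.74). With the replicate block it was NR4A3 in 3DF vs. 3DF_50 (0.024). Without 1 library the ranges crossed 0 for NR4A2 in 2DC vs. 2DC_L (-0.018 to 0.27), for NR4A1 (-0.48 to 0.55) and MYC (-0.17 to 0.18) in 3DF vs. 2DC, for MYC in 3DF_50 vs. 2DC (-0.26 to 0.075), and for HES1 in 3DF_50 vs. 2DF (-0.74 to 0.18). They did so in 3DF vs. 2DF for NR4A2 (-0.38 to 0.044), KLF4 (-0.084 to 0.45), KLF6 (-0.25 to 0.043) and KLF10 (-0.56 to 0.084). In 3DF vs. 3DF_50 they did so for EGR1 (-0.045 to 0.35), NR4A1 (-0.090 to 0.93), NR4A2 (-0.098 to 0.32), NR4A3 (-0.59 to 0.21), KLF10 (-0.22 to 0.37), HES1 (-0.98 to 0.24) and MYC (-0.047 to 0.12).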

Other observations

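In the matrices of lower density against the digested dish (3DF_50 vs. 2DC, edgeR), 11 of the 62 genes tested in the pathway lists were called (17.7%), against 1557 of all 13402 genes tested (11.6%), and nothing is read from this count. The 11 genes lie outside the naming rule and are named here after their values were seen. NAB2, a corepressor of EGR proteins, rose (1.09 ± 0.13) and EGR3 fell (-1.203 ± 0.22), with 4 genes of that list tested. Of 8 Notch genes tested, the ligand DLL1 (1.51 ± 0.44), the receptor NOTCH3 (1.30 ± 0.29) and the coactivator MAML1 (1.06 ± 0.34) rose, with edgeR adjusted p-values of 0.0242, 0.00795 and 0.0355. All 3 were at low levels. DLL1 had 6 to 14 counts per library in 2DC and 13 to 28 in 3DF_50. NOTCH3 had 42 to 68 and 86 to 103, and MAML1 10 to 18 and 19 to 28. KLF13 (1.07 ± 0.26) and PLK3 (2.51 ± 0.32) rose. MXD3 (-3.31 ± 0.82), SGK1 (-1.13 ± 0.12), CYR61 (-2.72 ± 0.16) and CTGF (-4.82 ± 0.35) fell.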
